A study of Mus musculus with 27 samples.

Results

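The endoplasmic reticulum (ER) chaperone and translocation genes are 39 genes whose products move nascent secretory and membrane proteins into the ER, attach their glycans, remove their signal peptides and fold them. They were chosen by name, and their Ensembl identifiers were matched through GENCODE mouse symbols. All 39 were found among the 37332 genes of the count table and in the TPM table, and all 39 passed the filter on low counts, which left 18226 genes to test.

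Polyadenylated RNA of more than 200 nt was sequenced from chromatin, nucleoplasm (soluble nuclear RNA) and cytoplasm of 3 mouse cell types, with 3 libraries labelled as biological replicates in each of the 9 groups. The mESC were the E14 embryonic stem cell line, grown on gelatin with LIF. The mNPC were neural progenitors, a line the submitters had established themselves, grown with B27 lacking vitamin A and with 10 ng/ml EGF and FGF. The mCtx were primary cortical neurons kept 5 days in culture. The labels name no genetic change or drug treatment, and the libraries were stranded, paired-end and 100 bp long.

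Signal peptides and membrane segments are recognised as they leave the ribosome, by the signal recognition particle (SRP), which brings the translating ribosome to its receptor on the ER membrane. The SEC61 channel then takes in the chain, the oligosaccharyltransferase adds glycans, signal peptidase cuts the leader, and lectin chaperones, heat-shock family chaperones and disulfide isomerases assist folding in the lumen. These genes encode ER proteins themselves, and many of their mRNAs, though not necessarily all, are known to be translated largely on ER-bound ribosomes. The ER membrane is continuous with the outer nuclear envelope. Many of the luminal members are known targets of the unfolded protein response, which raises folding capacity when misfolded proteins accumulate.

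Library totals ran from 10622897 to 24537526 counts, and no pair of libraries held identical counts. Levels are given in CPM, counts scaled to equal library totals after TMM (trimmed mean of M-values) scaling, so they are relative to the RNA of a fraction and give no amount per cell. The 9 pluripotency markers summed to 5628 CPM in mESC cytoplasm and to 15.1 and 4.64 CPM in mNPC and mCtx cytoplasm. The 11 neuron markers summed to 8297 CPM in mCtx cytoplasm and to 259 and 866 CPM in mESC and mNPC. The 10 neural progenitor markers summed to 8181 CPM in mNPC cytoplasm, 1817 in mCtx and 722 in mESC. Markers of other cells were present in mNPC, with astrocyte markers at a summed 1319 CPM in cytoplasm and oligodendrocyte lineage markers at 1872 CPM in nucleoplasm and 142 in cytoplasm. In mESC, astrocyte and endothelial markers summed to 614 and 374 CPM in nucleoplasm and 141 and 38.1 CPM in cytoplasm. Microglia markers summed to 53.9 TPM in mCtx cytoplasm and to 0.25 and 0.23 TPM in mESC and mNPC. In CPM those 3 sums were 80.2, 84.4 and 30.3. In each mESC fraction the library numbered 1 correlated least with its group (mean r of 0.969 to 0.978), and the counts over all 39 members that involve mESC are given without those 3 libraries as well.

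The first comparison set the nucleoplasm libraries against those of cytoplasm. The nucleoplasm libraries held more than soluble nuclear RNA. Their 13 mitochondrially encoded mRNAs summed to means of 166055, 340906 and 265303 TPM in mESC, mNPC and mCtx. In cytoplasm the means were 1050.2, 13255 and 105906 TPM. A higher value in nucleoplasm therefore describes that fraction, and whether the RNA was nuclear was not tested. In mESC, 33 of the 39 members were higher in nucleoplasm and none was lower, against 27.5% of all tested genes higher and 8.95% lower. The median log2 fold change of the members was 2.70, with a range from -0.21 to 4.55, and that of all tested genes was 0.04. A gene was called when the Benjamini-Hochberg adjusted p of edgeR's quasi-likelihood test over all tested genes was under 0.05 and its fitted log2 fold change was 1 or more in either direction. Together the members took 15936, 18182 and 20600.0 CPM of the 3 mESC nucleoplasm libraries and 2171, 2646 and 2914 CPM of the 3 cytoplasm libraries. Without the 3 mESC libraries numbered 1 the count was again 33 higher and none lower. In all 39 members the fitted value was highest in mESC, lower in mNPC and lowest in mCtx. That order held in all 39 members with RLE size factors, with library totals alone and in the deposited TPM values. The plot of the members by role shows the fitted values. How many of all tested genes had the same order was not counted. By the interaction test described below, 22.9% of all tested genes had a lower ratio in mCtx than in mESC and 12.3% a higher one.

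**Figure D1:**
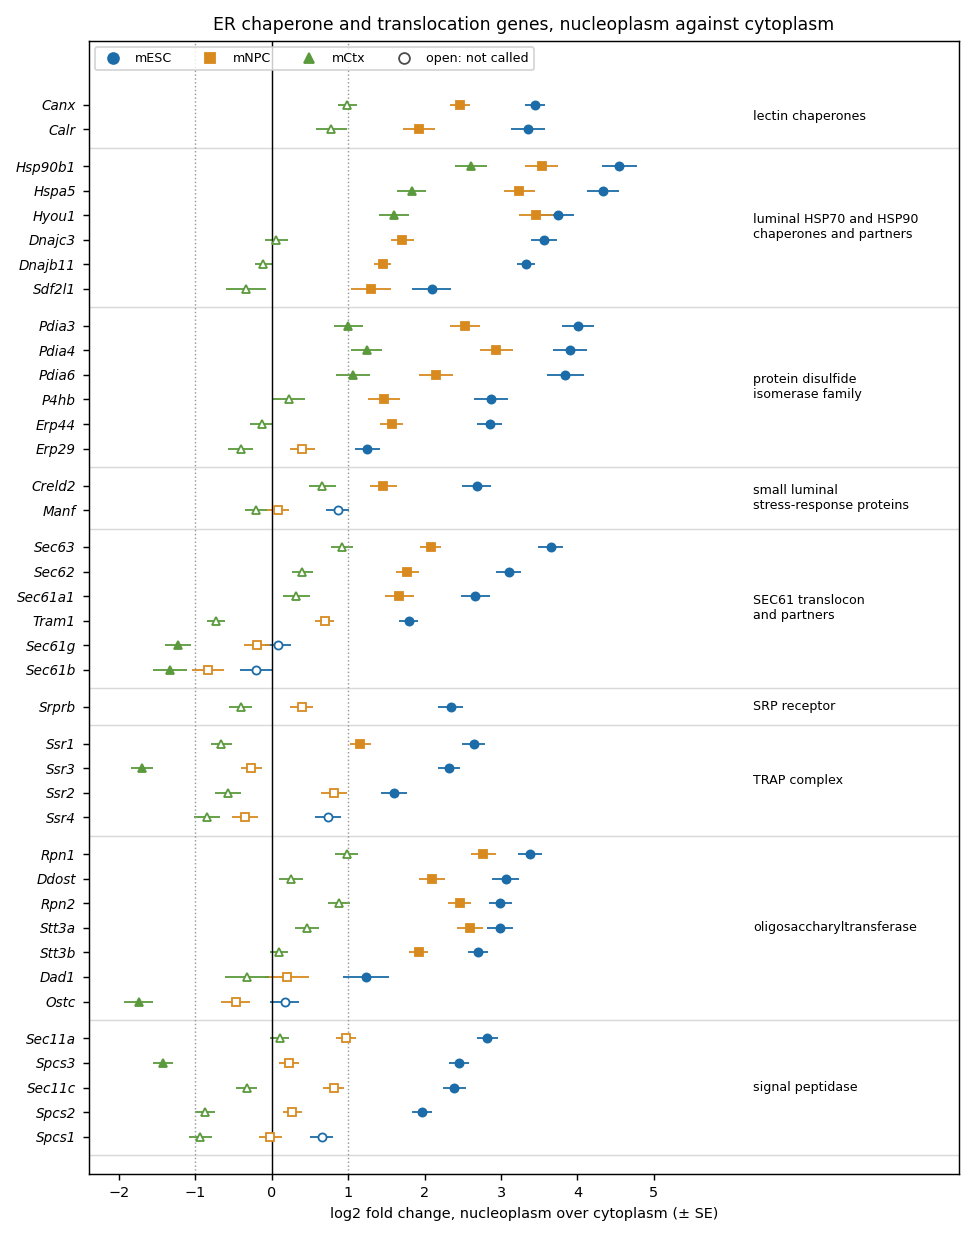
Fitted log2 fold change of nucleoplasm over cytoplasm (x axis, bars are SE, 3 libraries a group) for the 39 members, grouped by role, in mESC (circles), mNPC (squares) and mCtx (triangles). Filled symbols passed the test, dotted lines mark a log2 fold change of 1 in either direction, and the mESC value lies farthest right in every row, from -0.21 for Sec61b to 4.55 for Hsp90b1.

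The lectin chaperones hold glycoproteins through the monoglucosylated glycan while they fold. Canx, the membrane-bound calnexin (chromosome 11, 50293961 to 50325673, - strand, mm10), stood at 2265, 2147 and 2215 CPM in the mESC nucleoplasm libraries and at 211, 189 and 212 CPM in cytoplasm. Calr, its soluble relative calreticulin (chromosome 8, 84841850 to 84846934, - strand), had 1116, 1411 and 1727 CPM in nucleoplasm against 93.9, 141 and 181 CPM in cytoplasm. In both genes each nucleoplasm library lay above each cytoplasm library, and Calr was lowest in the library numbered 1 of either fraction. Their log2 fold changes were 3.44 ± 0.13 (SE, adjusted p = 3.2e-17) and 3.35 ± 0.22 (SE, adjusted p = 9.5e-13).

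The luminal HSP70 and HSP90 chaperones included Hsp90b1 and Hspa5, the members with the highest mESC ratios. Hsp90b1, the HSP90 of the ER lumen (chromosome 10, 86690209 to 86705509, - strand), stood at 1362, 1827 and 2009 CPM in mESC nucleoplasm and at 49.9, 78.5 and 92.8 CPM in cytoplasm, for a log2 fold change of 4.55 ± 0.23 (SE, adjusted p = 3.4e-15). The groups did not overlap, and again the library numbered 1 was the lowest of its group. Gm15344 and Gm25745 overlap its span on the same strand, with 30.6% as many counts, so part of the reads could belong to either. Hspa5 (BiP), the HSP70 of the lumen, which also binds the stress sensors (chromosome 2, 34771970 to 34776531, + strand), had 906, 1083 and 1441 CPM against 39.9, 58.5 and 71 CPM, again without overlap, and rose by 4.34 ± 0.21 (SE, adjusted p = 3.2e-15). Hyou1, its nucleotide exchange factor, had 3.74, and the J-domain partners Dnajc3 and Dnajb11 had 3.56 and 3.33. Sdf2l1, which works with Dnajb11, was the lowest of the role, at 49.8, 62.1 and 77 CPM in nucleoplasm and 9.35, 15.2 and 19.7 CPM in cytoplasm. It still rose by 2.09 ± 0.26 (SE, adjusted p = 1.2e-07), without overlap of the groups.

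Protein disulfide isomerases form and rearrange disulfide bonds. Pdia3 (ERp57), the partner of calnexin and calreticulin (chromosome 2, 121413775 to 121438687, + strand), had 639.7, 884 and 1059 CPM in mESC nucleoplasm and 39.8, 52.1 and 68.2 CPM in cytoplasm, for a log2 fold change of 4.01 ± 0.21 (SE, adjusted p = 1.1e-14). Pdia4, Pdia6, P4hb (the founding isomerase) and Erp44, which retrieves client proteins by thiol bonds, rose by 3.90, 3.84, 2.87 and 2.85. Erp29, a family member without the catalytic cysteine pair, was the lowest, with 169, 218 and 228 CPM against 83.4, 87.6 and 88.2 CPM and a log2 fold change of 1.25 ± 0.16 (SE, adjusted p = 2.9e-07). Its groups did not overlap. Erp29 shares its span with Naa25 and Tmem116 on the other strand, whose counts came to 71.7% of its own, and the strand setting used for counting is not stated.

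The small luminal proteins Creld2 and Manf, both known to be induced by ER stress, differed from each other. Creld2 (chromosome 15, 88819646 to 88826681, + strand) stood at 122, 126 and 146 CPM in mESC nucleoplasm and 21.5, 19.6 and 20.4 CPM in cytoplasm, for a log2 fold change of 2.68 ± 0.19 (SE, adjusted p = 2.3e-12). Manf, a neurotrophic factor held in the lumen, had 160.2, 227 and 273 CPM against 119, 123 and 121 CPM. Its log2 fold change of 0.86 ± 0.15 (SE, adjusted p = 1.4e-05) fell short of the minimum size. The counted span of Manf overlaps Rbm15b and an unnamed gene on the same strand, with 44.9% as many counts, and Dcaf1 on the other strand, with 40.9%. Manf passed with library totals alone, at 1.06, and in the deposited TPM values, at 2.12. The values of Manf are therefore uncertain.

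Within the translocon, subunits of the same channel differed. Sec63, the J-domain protein that brings BiP to the channel (chromosome 10, 42761496 to 42832514, + strand), stood at 154, 139.8 and 140.0 CPM in mESC nucleoplasm and 12.4, 8.64 and 13.5 CPM in cytoplasm, for a log2 fold change of 3.65 ± 0.16 (SE, adjusted p = 2.1e-16). Sec62, its partner, had 3.10, Sec61a1, the pore-forming subunit, 2.66 and Tram1, a membrane protein beside the channel, 1.79. The small single-span subunits did not pass. Sec61b (chromosome 4, 47474658 to 47483242, + strand) had 69.8, 114 and 138 CPM in nucleoplasm and 86.8, 139 and 148 CPM in cytoplasm, so the groups overlapped and the log2 fold change was -0.21 ± 0.21 (SE, adjusted p = 0.385). Sec61g had 0.08 ± 0.17 (SE, adjusted p = 0.688), with overlapping groups as well. Srprb, the membrane-anchored subunit of the SRP receptor (chromosome 9, 103188033 to 103202137, - strand), rose from 23.3, 23 and 21.5 CPM to 103, 116 and 125 CPM, a log2 fold change of 2.34 ± 0.16 (SE, adjusted p = 9.4e-13). Its span overlaps Gm20425 on the same strand, a locus with 146% as many counts, so its reads are uncertain.

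The TRAP complex sits beside the channel and helps some signal sequences to enter. Ssr1 (chromosome 13, 37971401 to 37994190, - strand) had 335, 391 and 409.6 CPM in mESC nucleoplasm against 46.4, 63.9 and 71.1 CPM in cytoplasm, for a log2 fold change of 2.64 ± 0.15 (SE, adjusted p = 2.6e-14). Ssr3 and Ssr2 rose by 2.32 and 1.60. Ssr4 (chromosome X, 73787028 to 73790830, + strand), at 52.9, 39.6 and 43.7 CPM against 30.4, 26.1 and 25.8 CPM, did not overlap between the groups but had a log2 fold change of 0.73 ± 0.17 (SE, adjusted p = 5.7e-04), under the minimum size.

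Of the 7 oligosaccharyltransferase subunits 6 were higher in mESC nucleoplasm. Rpn1, ribophorin I (chromosome 6, 88084473 to 88105304, + strand), stood at 784, 669 and 738 CPM in nucleoplasm and 73.7, 62.7 and 74.7 CPM in cytoplasm, for a log2 fold change of 3.38 ± 0.16 (SE, adjusted p = 2.0e-15). The catalytic subunits Stt3a and Stt3b had 2.99 and 2.70, and the structural subunits Ddost, Rpn2 and Dad1 had 3.06, 2.99 and 1.23. Dad1 passed with overlapping groups, and its value was 0.90 without mESC nucleoplasm replicate 3 and 0.86 without mESC cytoplasm replicate 1, under the minimum size. Ostc, a small subunit of the complexes that contain Stt3a (chromosome 3, 130695921 to 130709444, - strand), had 92.5, 126 and 154 CPM against 84.8, 121 and 125 CPM, overlapping groups and a log2 fold change of 0.17 ± 0.19 (SE, adjusted p = 0.439).

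Signal peptidase has a catalytic subunit, Sec11a or Sec11c, and accessory subunits. Sec11a (chromosome 7, 80904889 to 80947780, - strand) stood at 94.7, 122 and 114 CPM in mESC nucleoplasm and 12.6, 17.3 and 16.8 CPM in cytoplasm, for a log2 fold change of 2.82 ± 0.14 (SE, adjusted p = 4.5e-15). Sec11c, Spcs3 and Spcs2 rose by 2.39, 2.45 and 1.97. Spcs1 (chromosome 14, 30999826 to 31001672, - strand), with 49.3, 45.8 and 54.3 CPM against 28.2, 34 and 33 CPM, had 0.65 ± 0.15 (SE, adjusted p = 5.2e-04), under the minimum size and without overlap. Glt8d1 lies across it on the other strand, with 124% as many counts.

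The ER stress response element is a promoter motif known to bind NF-Y at its CCAAT end and ATF6 or XBP1 at its CCACG end. Its letters are CCAAT, then 9 bases of any kind, then CCACG, and both strands were searched in RefSeq's promoter windows of build GRCm38.p6, from 250 bases before to 50 after the gene start. Of the 30 members with a window, 7 held the element (23.3%), against 37 of 27025 genes (0.137%). Many luminal members were already known targets of the unfolded protein response, so these shares only describe the list. In the lists described below, 1 of 43 other ER folding and glycan processing enzymes with a window held it (Alg12). In ER-associated degradation 2 of 21 did (Syvn1 and Derl3), and in the remaining lists none did. The 9 members without a window are Hyou1, Erp29, Manf, Sec61a1, Tram1, Ssr2, Ostc, Spcs3 and Sec11c. The 7 were Canx, Calr, Hspa5, Hsp90b1, Dnajc3, Pdia6 and Creld2, all of them folding genes or stress-response proteins and none a translocon, oligosaccharyltransferase or signal peptidase subunit. The whole windows of Hspa5 and Hsp90b1 are shown because these genes had the highest nucleoplasm-to-cytoplasm ratios in mESC, and for the other 5 the element with its neighbouring bases. Sequences run 5′ to 3′ on the gene's strand, with the fixed letters of the element in capitals.
Hspa5, chr2:34771840-34772139, + strand: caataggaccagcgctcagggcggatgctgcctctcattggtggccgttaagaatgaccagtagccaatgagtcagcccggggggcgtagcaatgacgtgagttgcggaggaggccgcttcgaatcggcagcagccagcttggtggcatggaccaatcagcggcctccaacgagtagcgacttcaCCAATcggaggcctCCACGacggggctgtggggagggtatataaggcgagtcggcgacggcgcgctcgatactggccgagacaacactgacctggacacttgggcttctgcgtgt
Hsp90b1, chr10:86705395-86705694, - strand: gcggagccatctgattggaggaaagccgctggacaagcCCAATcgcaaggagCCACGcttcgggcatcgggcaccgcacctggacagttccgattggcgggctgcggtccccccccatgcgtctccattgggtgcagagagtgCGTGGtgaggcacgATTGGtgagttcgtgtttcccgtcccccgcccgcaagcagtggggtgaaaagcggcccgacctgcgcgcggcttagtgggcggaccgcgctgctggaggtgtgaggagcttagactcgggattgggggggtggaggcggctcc
Canx, chr11:50325790-50325828, - strand: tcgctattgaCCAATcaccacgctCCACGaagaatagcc
Calr, chr8:84847065-84847103, - strand: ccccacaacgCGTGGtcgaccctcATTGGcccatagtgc
Dnajc3, chr14:118937817-118937855, + strand: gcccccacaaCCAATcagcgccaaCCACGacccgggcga
Pdia6, chr12:17266481-17266519, + strand: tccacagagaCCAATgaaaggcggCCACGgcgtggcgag
Creld2, chr15:88819510-88819548, + strand: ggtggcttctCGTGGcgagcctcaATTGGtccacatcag

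Hsp90b1 held the element once on each strand, beginning 212 and 107 bases before the start, and Hspa5 once, beginning 65 bases before it. Distances here are from the gene start of the RefSeq window. In some of these genes, Hspa5 and Hsp90b1 among them, that start differs from the start of the counted span given above. In Calr and Creld2 the element was on the other strand, so the capitals read CGTGG before ATTGG. In the other genes it began 98 to 145 bases before the start, and in Calr and Creld2 162 and 126. The 7 genes with the element had log2 fold changes of 2.68 to 4.55 in mESC nucleoplasm over cytoplasm (median 3.56), beside a median of 2.82 over the 23 members with a window and no match. In mCtx the medians were 0.99 and -0.11. The 7 genes also had coding sequences of 1050 to 2406 bases and all 39 members of 288 to 2997 bases, and the difference between those with and without a match was not tested. For 6 of the 7 genes, bases after the window's gene start were found in a GENCODE transcript of the gene. A match describes the letters of these windows only.

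Members with longer coding sequences had higher nucleoplasm-to-cytoplasm ratios. Over the 39 members, Spearman's rho between coding length and the fitted log2 fold change was 0.86 in mESC, 0.93 in mNPC and 0.85 in mCtx. Over the 15576 tested genes with a coding sequence it was 0.07, 0.36 and 0.60 in the same order. These are descriptions across genes that share libraries, which are not independent replicates. All 29 members over 600 bases were higher in mESC nucleoplasm, with a median log2 fold change of 2.99, beside 27.3% of the 13591 tested genes of that length. Of the 10 members up to 600 bases, 4 were higher (Ssr3, Ssr2, Spcs3 and Dad1), with a median of 0.79, beside 15.8% of 1985 genes. In mCtx none of the 10 short members was higher and 5 were lower, beside 2.17% higher and 34.1% lower over the 1985 genes of that length. The plot against coding length places Sec61b, of 288 bases, and Ostc, of 447, at the low end in each cell type.

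**Figure D2:**
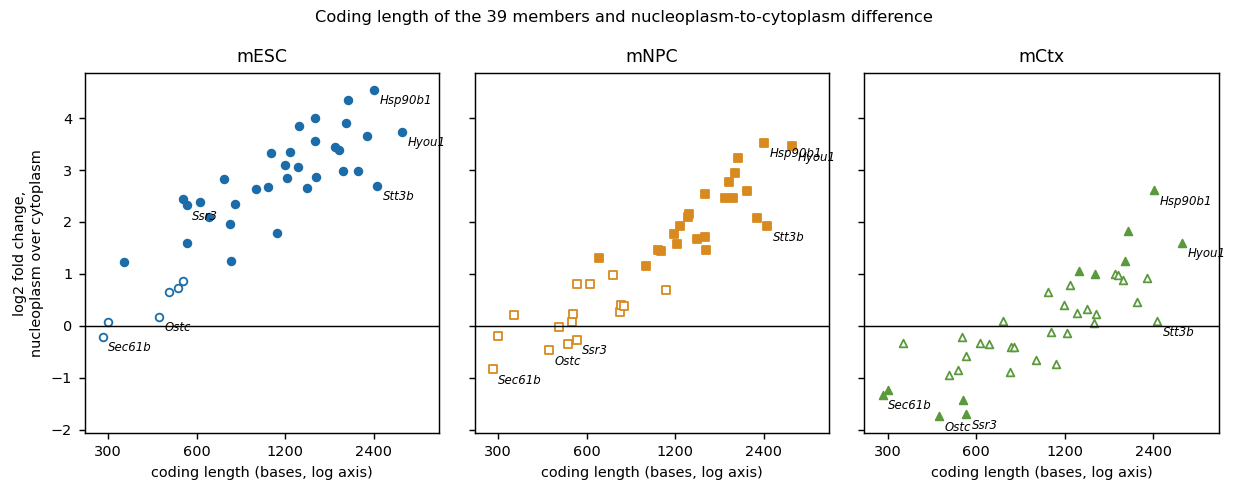
Fitted log2 fold change of nucleoplasm over cytoplasm (y axis) against coding length in bases (x axis, log scale) for the 39 members, with 1 panel for each cell type and 1 point for each gene. The points climb from left to right in all 3 panels, with Spearman's rho of 0.86 in mESC, 0.93 in mNPC and 0.85 in mCtx, and each point lies lower in mNPC than in mESC and lower still in mCtx.

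In mNPC, 23 of the 39 members were higher in nucleoplasm than in cytoplasm and none was lower, against 16.4% and 8.56% of all tested genes. The members' median log2 fold change was 1.46 and that of all genes -0.04. All 23 were among the 33 members higher in mESC. By role, both lectin chaperones, all 6 HSP70 and HSP90 members and 5 of 6 disulfide isomerases passed, with 5 of 7 oligosaccharyltransferase subunits, 3 of 6 translocon members and 1 of 4 TRAP subunits. None of the 5 signal peptidase subunits passed, and neither did Srprb, but Sec11a lay at 0.97 and passed with RLE factors (1.11), among other settings. In the deposited TPM values with a pseudocount of 1, 20 of the 23 passed, and Ssr1, Sdf2l1 and Erp44, at 0.76, 0.89 and 1.00, did not. Hsp90b1 had 1901, 1990.3 and 2243 CPM in nucleoplasm and 173, 168 and 189.5 CPM in cytoplasm, for a log2 fold change of 3.53 ± 0.22 (SE, adjusted p = 3.3e-13). Sec63 had 311, 322 and 335 CPM against 80.7, 72.6 and 75.3 CPM, and Ssr1 359.7, 379 and 347 CPM against 148, 159.8 and 179 CPM. In these 3 genes the groups did not overlap, in the same libraries by which they were called. Ssr1, the single TRAP subunit called, had 1.16, and 0.88 with library totals alone, under the minimum size. Spcs3, which had risen in mESC, stood at 98.6, 109.9 and 109 CPM against 75.8, 91.5 and 106 CPM with overlapping groups, and its log2 fold change was 0.22 ± 0.13 (SE, adjusted p = 0.164). Sec61b lay lower in every nucleoplasm library, at 78.1, 73.1 and 52.1 CPM against 110.5, 112 and 141 CPM. Its log2 fold change of -0.84 ± 0.21 (SE, adjusted p = 0.00188) fell short of the minimum size, and with library totals alone (-1.12) and in TPM (-1.18) it passed.

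In mCtx the members were called at shares close to those of all genes. Of the 39, 6 were higher in nucleoplasm and 5 were lower, against 11.7% and 9.57% of all tested genes, and the members' median was 0.06 beside 0.00 over all genes. The split was 4 higher and 6 lower with library totals alone. The 6 higher members were the folding genes Hsp90b1, Hspa5, Hyou1, Pdia3, Pdia4 and Pdia6, with 2.61, 1.83, 1.60, 1.00, 1.24 and 1.06. The same 6 were higher in mESC and mNPC. Hsp90b1 stood at 968, 902 and 881 CPM in nucleoplasm against 169, 125 and 158 CPM in cytoplasm, an increase of 2.61 ± 0.21 (SE, adjusted p = 3.0e-10). Pdia3, at 641, 584 and 594 CPM against 321, 299 and 287 CPM, lay at the minimum size, and leaving out single libraries put it between 0.92 and 1.05.

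The 5 members lower in mCtx nucleoplasm were short subunits of membrane complexes. As a count they lay near the 9.57% of all tested genes that were lower. Of all tested genes with a coding sequence up to 600 bases, 34.1% were lower in mCtx. Ostc had 42.8, 36.1 and 38.6 CPM in nucleoplasm and 136, 136 and 119.5 CPM in cytoplasm, for a log2 fold change of -1.74 ± 0.19 (SE, adjusted p = 5.0e-08). Ssr3, the gamma subunit of TRAP (chromosome 3, 65379655 to 65392623, - strand), had 117, 102 and 98.6 CPM against 399.9, 334 and 300.3 CPM, a change of -1.70 ± 0.14 (SE, adjusted p = 5.5e-10). Spcs3, an accessory signal peptidase subunit (chromosome 8, 54520433 to 54529998, - strand), fell from 103, 90.8 and 84.3 CPM in cytoplasm to 35.5, 34 and 34.6 CPM in nucleoplasm, a change of -1.42 ± 0.13 (SE, adjusted p = 2.3e-09). Both Ssr3 and Spcs3 were higher in nucleoplasm in mESC and lower in mCtx. The 2 small channel subunits were also lower. Sec61b stood at 34.9, 39.9 and 39.8 CPM against 95, 105 and 88.7 CPM, a change of -1.33 ± 0.22 (SE, adjusted p = 1.4e-05). Sec61g (chromosome 11, 16500530 to 16508484, - strand) stood at 62.2, 62.7 and 65.4 CPM against 151, 161 and 135 CPM, a change of -1.23 ± 0.17 (SE, adjusted p = 1.7e-06). In all 5 the groups did not overlap, in the same libraries by which they were called. The share of all tested genes without overlap was not counted in this or any other comparison. The plot of 6 members in every library shows Sec61b and Ssr3 beside Hsp90b1, which was higher in mCtx nucleoplasm. It also shows Canx, Rpn1 and Sec11c, which were not called there.

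**Figure D3:**
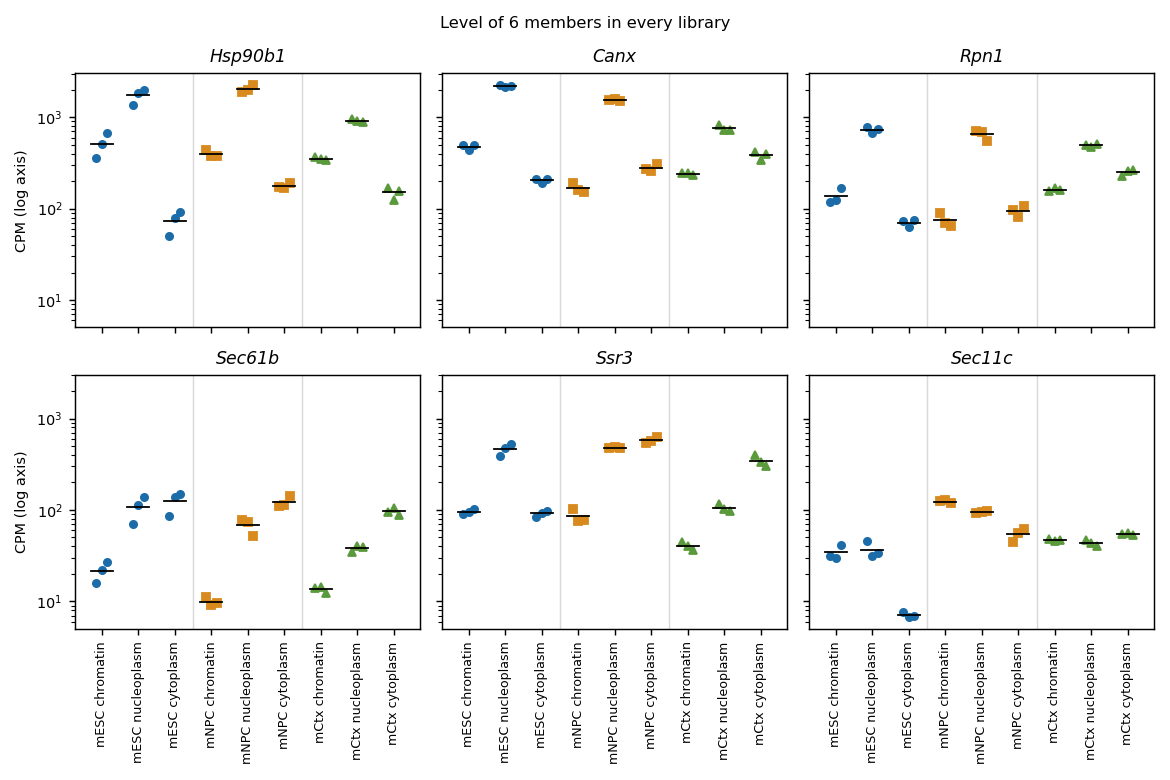
CPM (y axis, log scale) of Hsp90b1, Canx, Rpn1, Sec61b, Ssr3 and Sec11c in each of the 27 libraries, by cell type and fraction (x axis), with 1 symbol for each library and a bar at the mean of 3. Ssr3 nucleoplasm lies above cytoplasm in mESC and below it in mCtx, while Hsp90b1 nucleoplasm lies above cytoplasm in all 3 cell types.

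The difference in ratio between cell types was tested as an interaction in the same fit. All 39 members had a lower nucleoplasm-to-cytoplasm ratio in mCtx than in mESC, against 22.9% of all tested genes lower and 12.3% higher, with a median log2 difference of -2.53 beside -0.28 over all genes. From mESC to mNPC 21 members were lower and none higher, against 10.7% and 3.51% (median -1.08 beside -0.24). From mNPC to mCtx 29 were lower and none higher, against 13.3% and 6.31% (median -1.38 beside 0.04). The 3 comparisons share libraries, and the first is the sum of the others. Ssr3 moved farthest from mESC to mCtx, by -4.02 ± 0.20 (SE, adjusted p = 2.1e-14), followed by Spcs3 with -3.86 ± 0.18 (SE, adjusted p = 1.0e-14) and Dnajc3, the inhibitor of the stress kinase PERK, with -3.49 ± 0.23 (SE, adjusted p = 1.9e-12). Ssr3 and Spcs3 made most of this step between mESC and mNPC, with -2.59 and -2.23, and Srprb followed with -1.95. Stt3a, Hyou1 and Ddost moved mainly between mNPC and mCtx, with -2.13, -1.86 and -1.83, and by -0.40, -0.28 and -0.98 between mESC and mNPC. The count from mESC to mNPC was 36 with library totals alone and 33 or 34 in TPM, and that from mNPC to mCtx was 19 in TPM. Without the 3 mESC libraries numbered 1, 17 members were lower from mESC to mNPC and 39 from mESC to mCtx. Leaving out single libraries put the first of these counts between 14, without mESC cytoplasm replicate 2, and 25.

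Mitochondrially encoded mRNAs, which are made outside the nucleus, moved with the members. Their 13 genes summed to 38272, 41466 and 37990.3 CPM in mESC nucleoplasm and 386, 328 and 281 CPM in cytoplasm. In mNPC the sums were 121917, 107002 and 134126 CPM and 3278, 3092 and 5038 CPM, and in mCtx 72939, 69173 and 76876 CPM and 26715, 26193 and 26254 CPM. Nucleoplasm was above cytoplasm in every case. Of the 11 that passed the filter, 10, 11 and 11 were higher in nucleoplasm in mESC, mNPC and mCtx. In mESC cytoplasm mt-Nd3, mt-Nd4l, mt-Co3 and mt-Atp8 had no counts. Their ratio was also lower in mNPC than in mESC for 6 of the 11, in mCtx than in mNPC for 11 and in mCtx than in mESC for 7, with none higher. The part of mitochondrial RNA in the results on the members was not tested. With the mitochondrial genes left out before scaling, the members' counts were the same, 33 and 0 in mESC, 23 and 0 in mNPC and 6 and 5 in mCtx. The nuclear long noncoding RNA markers Malat1, Neat1 and Tsix, the 3 of 6 listed in the count table, summed highest in chromatin, with means of 2422, 4281 and 816 CPM in mESC, mNPC and mCtx, and 662, 304 and 386 CPM in nucleoplasm. In cytoplasm their means were 52.7, 63.9 and 179.9 CPM in the same order. The gap between nucleoplasm and cytoplasm thus also narrowed from mESC to mNPC to mCtx for these markers. Its bearing on the members was not tested.

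**Figure D4:**
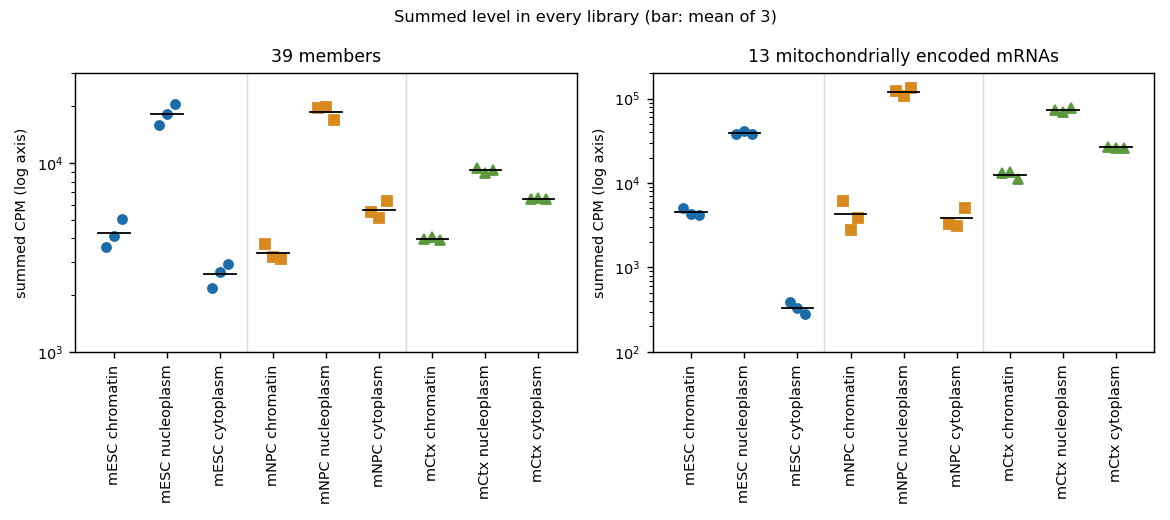
Summed CPM (y axis, log scale) of the 39 members (left) and of the 13 mitochondrially encoded mRNAs (right) in each library, by cell type and fraction (x axis), with a bar at the mean of 3. Nucleoplasm stands above cytoplasm for both lists in all 3 cell types, and the gap narrows in mCtx, where the members' means are 9193 and 6473 CPM.

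Chromatin was compared with nucleoplasm to tell the nuclear fractions apart. In mESC 35 members were lower on chromatin and none was higher (background 17.4% lower and 16% higher), with a median log2 fold change of -2.04. Without the mESC libraries numbered 1 the count was again 35 lower and none higher. In mNPC 35 were again lower and none higher (background 21.7% and 22.7%), with a median of -2.38. Creld2, Sec11a, Sec11c and Ssr4 were the 4 members not lower in either cell type. Canx, for example, had 502, 434 and 497 CPM on mESC chromatin, below the 3 nucleoplasm values given above, and Sec11c had 31.3, 29.9 and 41.9 CPM on chromatin against 45.3, 31.2 and 34 CPM in nucleoplasm, with overlapping groups. In mCtx 23 members were lower and none higher (background 16.1% and 17.4%), with a median of -1.13. In the deposited TPM values 2 members were lower and 1 was higher in mCtx, and with library totals alone 14 were lower.

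Chromatin compared with cytoplasm gave mixed directions. In mESC 16 members were higher on chromatin and 4 were lower, against 34.4% and 21.6% of all tested genes (median 0.78 beside 0.37), and without the libraries numbered 1 the counts were 17 and 4. The count of higher members lay near the share over all genes, and that of lower members lay under it. The 4 lower members were Sec61b, Sec61g, Ostc and Spcs1. Sec61b had 16, 22.1 and 26.9 CPM on chromatin, a log2 fold change of -2.52 ± 0.23 (SE, adjusted p = 1.7e-10) from the cytoplasm values above. Sec61g had 22.3, 26.5 and 32.1 CPM against 106, 155 and 173 CPM, a change of -2.42 ± 0.18 (SE, adjusted p = 5.0e-12). Ostc had 19.2, 26.2 and 35.1 CPM and Spcs1 6.57, 9.17 and 8.9 CPM, changes of -2.04 ± 0.20 (SE, adjusted p = 5.9e-10) and -1.95 ± 0.16 (SE, adjusted p = 2.9e-11). Every chromatin library of these 4 genes lay below every cytoplasm library, in the same libraries by which they were called. In the TPM values 28 members were higher and 4 lower.

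In mNPC 2 members were higher on chromatin than in cytoplasm and 18 were lower, against 27.5% and 21.3% of all tested genes (median -0.75 beside 0.12). The split was 4 and 12 with library totals alone and 7 and 11 in TPM. The 2 higher members were Hsp90b1, with 438, 378 and 380.3 CPM on chromatin and a log2 fold change of 1.17 ± 0.20 (SE, adjusted p = 8.3e-06), and Sec11c, with 124, 128 and 119 CPM against 44.4, 56.1 and 61.8 CPM and 1.20 ± 0.14 (SE, adjusted p = 2.3e-08). The value of Sec11c in TPM was 0.77, under the minimum size. In mCtx 2 members were higher and 15 lower, against 26.2% and 24.4% (median -0.76 beside 0.00), and the split was 6 and 11 in TPM. Hsp90b1 was again higher, at 364, 349 and 344 CPM and 1.23 ± 0.20 (SE, adjusted p = 4.4e-06), together with Creld2, at 56.3, 64.1 and 52.5 CPM against 24.5, 26.4 and 28.5 CPM and 1.12 ± 0.18 (SE, adjusted p = 3.4e-06). Hsp90b1 was therefore above cytoplasm both on chromatin and in nucleoplasm of all 3 cell types, with the overlapping loci named above.

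The cytoplasm fraction was compared between cell types. In mNPC cytoplasm 23 members were higher than in mESC and none was lower, against 29.8% and 29.6% of all tested genes (median 1.39). In mCtx 27 were higher than in mESC and none lower, against 35.7% and 32.2% (median 1.56), and 23 were higher in both. Without the mESC libraries numbered 1 the counts were 23 and 26. In these bulk samples, fewer cells that express a gene and less of its RNA in each cell cannot be told apart. From cytoplasm alone, a change in level cannot be told apart from a change in the split between fractions either. Summed over the 39 members, cytoplasm had means of 2577, 5652 and 6473 CPM in mESC, mNPC and mCtx. Nucleoplasm had 18239.5, 18767 and 9193 CPM in the same order. Sec11c, a catalytic signal peptidase subunit, had 7.59, 6.72 and 6.87 CPM in mESC cytoplasm and, as given above, a higher level in each mNPC library, with a log2 fold change of 2.94 ± 0.16 (SE, adjusted p = 2.8e-15). In mCtx cytoplasm it had 55.1, 55.8 and 53.1 CPM, a change of 2.95 ± 0.16 (SE, adjusted p = 1.5e-15) from mESC. Hspa5 rose from the mESC values above to 151, 129 and 162 CPM in mNPC and 227, 226 and 239 CPM in mCtx, changes of 1.39 and 2.03. Sec63 rose by 2.73 and 2.46, and Ssr3 by 2.66 and 1.90. The small subunits Sec61b and Sec61g did not pass in either comparison, with -0.04 and 0.02 in mNPC and -0.38 and 0.04 in mCtx.

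Between mNPC and mCtx cytoplasm 2 members were higher in mCtx and none was lower, against 24.4% and 20% of all tested genes (median 0.20). They were Rpn1, with 96, 81.3 and 108 CPM in mNPC, 225, 260.1 and 266 CPM in mCtx and a log2 fold change of 1.40 ± 0.15 (SE, adjusted p = 6.6e-09), and Dnajb11, with 52.1, 50.9 and 61.7 CPM, 115, 119 and 118 CPM and 1.10 ± 0.11 (SE, adjusted p = 1.9e-09). Their groups did not overlap, in the same libraries by which they were called. With library totals alone Dnajb11 had 0.98 and did not pass.

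Levels of different genes were compared in TPM, which is scaled by transcript length, and are given as mean ± SD (n = 3). Calr had the highest mean TPM of the 39 in mESC nucleoplasm, at 1169.6 ± 219, followed by Canx at 1119 ± 33.5 and P4hb at 822 ± 174. The means of Calr and Canx lay closer than the larger of their SDs. In mESC cytoplasm the order began with the short subunits Sec61b, at 377 ± 75.7, Ssr2, at 199.9 ± 42.5, and Ostc, at 155 ± 17.7. Calr was first in mCtx cytoplasm, at 532 ± 14.4 TPM, with Sec61b next at 285 ± 14.7. Dnajc3 had the lowest mean of the 39 in mESC cytoplasm, at 2.17 TPM, and in 8 of the 9 groups. The median over the 39 means was 195 TPM in mESC nucleoplasm and 34.2 in cytoplasm.

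Other genes of the secretory pathway were counted by list in the same comparison, where 27.5%, 16.4% and 11.7% of all tested genes were higher and 8.95%, 8.56% and 9.57% lower in mESC, mNPC and mCtx. Of 52 other ER folding and glycan processing enzymes, 48 were higher in mESC nucleoplasm and none lower (median 2.70), 37 and 1 in mNPC, and 9 and 6 in mCtx. They included Uggt1, the glycoprotein folding sensor, at 326 ± 45.1 CPM in nucleoplasm and 21 ± 1.32 in mESC cytoplasm (SD, n = 3), a log2 fold change of 3.95 ± 0.15 (SE), and Magt1, an oxidoreductase subunit of oligosaccharyltransferase, with 3.85 ± 0.17. The list of other ER enzymes also holds Sec61a2, Srpr, Tram2, Serp1 and Tmed1, which are not folding or glycan processing enzymes. Of 20 membrane cargo receptors between ER and Golgi, 17, 7 and 0 were higher in the 3 cell types and 0, 0 and 5 lower. Tmed5 and Lman1, the mannose-binding cargo receptor ERGIC-53, had 4.09 ± 0.20 and 3.73 ± 0.13 in mESC. ER-associated degradation, which returns misfolded proteins to the cytosol, had 21 of 30 genes higher and 2 lower in mESC. Its membrane adaptor Sel1l and lectin Os9 were higher in mESC, with 3.78 ± 0.19 and 3.65 ± 0.21, and the cytosolic extraction factors Vcp and Nploc4 were lower, with -1.21 ± 0.24 and -1.20 ± 0.13. Vcp was not called in mNPC (0.24) and was higher in mCtx nucleoplasm (1.75). Nploc4 was called in neither, with -0.91 and -0.22. Os9 was higher in both, and Sel1l in mNPC alone. In mNPC and mCtx the counts for that list were 15 and 0, then 2 and 1.

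The 18 regulators of the unfolded protein response had 9 higher and 2 lower genes in mESC, 7 and 2 in mNPC, and 1 and 2 in mCtx, and the counts of lower genes were near the shares over all genes (8.95%, 8.56% and 9.57%). The membrane sensors Eif2ak3 (PERK) and Atf6 were higher in mESC nucleoplasm, with 3.01 ± 0.13 and 2.78 ± 0.13. Atf4, a soluble transcription factor of the response, and Chac1, its target, were lower, with -1.29 ± 0.13 and -1.22 ± 0.24. Cytosolic and peripheral proteins were counted in the same way. Of 6 soluble SRP proteins none was higher in any cell type, and 1, 2 and 1 were lower, among them Srp68 with -1.24 ± 0.12 in mESC. Of 19 COPII and COPI coat proteins, which shape transport vesicles from the cytosolic side, 1 was higher and 11 lower in mESC, 0 and 2 in mNPC, and 6 and 1 in mCtx. In mESC Sar1b, the GTPase that starts the COPII coat, had 2.16 ± 0.15, and the coat subunits Copb2 and Sec24c had -1.31 ± 0.14 and -1.23 ± 0.20. Copb2 was not called in mNPC (-0.23) and was higher in mCtx nucleoplasm (1.38). Sar1b and Sec24c were called in neither. Of 37 cytosolic chaperones 1 was higher and 12 lower in mESC, 0 and 8 in mNPC, and 8 and 5 in mCtx. Dnajb4, a J-domain protein, had 1.53 ± 0.25 in mESC, and the HSP90 partners Fkbp4 and Cdc37 had -1.52 ± 0.16 and -1.49 ± 0.25 there. The lists are described by their counts, and the differences between them were not tested.

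**Figure D5:**
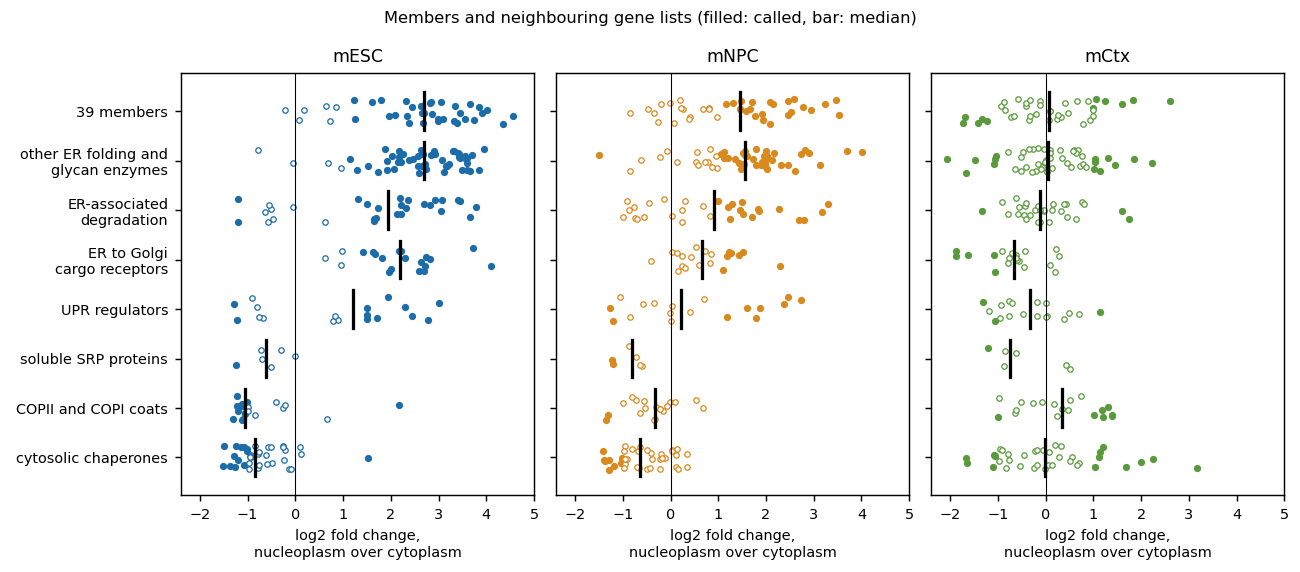
Fitted log2 fold change of nucleoplasm over cytoplasm (x axis) for the genes of each list (rows), with 1 panel for each cell type, 1 point for each gene, filled points for called genes and a bar at the median. In the mESC panel the members and the list of other ER folding and glycan enzymes share a median of 2.70, and in the mCtx panel their medians lie at 0.06 and 0.05.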

How the data were processed

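Library preparation was polyA-selected and stranded, per the labels' protocols. Counts per gene for 27 libraries, the 9 chromatin columns among them, were deposited as whole-number read counts without normalization, and TPM values were deposited in a separate table. The submitters' processing notes name STAR, featureCounts, kallisto 0.43.0 and build mm10. For the strand setting and annotation release, nothing is given in the sources used here. Gene length as deposited is the span from start to end in all 37332 genes, so reads in introns lie in the counted region. Symbols were matched by Ensembl identifier through GENCODE M21 for 35533 of 37332 genes with counts and 53274 of 53379 with TPM. The 39 members, the companion lists and the markers were chosen with earlier results of these data known.

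From the counts, genes were filtered with filterByExpr (18226 left) and scaled by TMM, and 1 quasi-likelihood fit over 9 groups was made with edgeR 4.0.16 in R 4.3.3. Differences within and between cell types were contrasts of that fit, called at an adjusted p under 0.05 (Benjamini-Hochberg over all tested genes) and a log2 fold change of at least 1 in size. The SE is the fold change divided by the square root of F. Library totals were 13496984 to 20808290 counts in mESC, 10622897 to 23608781 in mNPC and 15607890 to 24537526 in mCtx, and p-values measure the spread between libraries labelled as biological replicates. Coding length is the longest coding sequence of a gene in GENCODE M21. Overlap percentages compare the summed counts of the overlapping genes with those of the member.

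Values in every library are given for the members with the highest and lowest mESC nucleoplasm-to-cytoplasm value in each role and for those called against the majority. Those of Hspa5, of Rpn1 and Dnajb11 in cytoplasm and of the examples in other comparisons were added after their values were seen. Companion genes named are the 2 called with the largest mESC value in each direction and at least 10 CPM. Same-numbered libraries were checked for pairing by the correlation of their deviations from group means. Every pair exceeded 0.1 between mESC fractions (0.418 to 0.787) and between mCtx chromatin and cytoplasm (0.233 to 0.374), and not in the other comparisons. The alternatives were RLE factors, library totals, other filters, no minimum fold change, only the libraries compared, a replicate block, DESeq2 1.42.0, limma 3.58.1 on log2(TPM + 1) or log2(TPM + 0.1), no mitochondrial genes, each library left out, and, chosen after seeing the data, no mESC libraries numbered 1.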

Additional observations from a re-analysis of the deposited data

Results flagged for a closer look

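The nucleoplasm-to-cytoplasm ratio of the members differed between cell types by the interaction test. From mESC to mNPC 21 members were lower, led by Ssr3 with a log2 difference of -2.59, Spcs3 with -2.23 and Srprb with -1.95, and 36 were lower with library totals alone and 33 or 34 in TPM. From mNPC to mCtx 29 were lower, led by Stt3a with -2.13, Hyou1 with -1.86 and Ddost with -1.83, and 19 were lower in TPM. From mESC to mCtx all 39 were lower, led by Ssr3 with -4.02, Spcs3 with -3.86 and Dnajc3 with -3.49. Cell type cannot be told apart from differences between the preparations of each cell type's fractions, and fraction purity was not tested.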

How the results depend on the processing

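The counts of called members came within 1.5 times of the reported ones in 264 of the alternatives and moved farther in 16. Without a minimum fold change, 27 members were called in nucleoplasm against cytoplasm in mCtx, 34 and 33 in chromatin against cytoplasm in mESC and mCtx, 36 in chromatin against nucleoplasm in mCtx and 20 between mCtx and mNPC cytoplasm. In TPM with either pseudocount, 32 were called in chromatin against cytoplasm in mESC, 3 in chromatin against nucleoplasm in mCtx and 19 in the shift from mNPC to mCtx, and 33 or 34 in the shift from mESC to mNPC. Library totals alone gave 14 in chromatin against nucleoplasm in mCtx, 1 between mCtx and mNPC cytoplasm and 36 in the shift from mESC to mNPC. They moved the median log2 fold change of all genes from nucleoplasm over cytoplasm to 0.26 in mESC and -0.31 in mNPC, where the members' medians were 2.91 and 1.18. The cause of these changes was not tested. With each library left out in turn, nucleoplasm against cytoplasm gave 32 to 33 calls in mESC, 23 to 25 in mNPC and 10 to 13 in mCtx, and the shifts gave 14 to 25, 28 to 35 and 37 to 39. The replicate block gave 33, 23 and 11 calls in nucleoplasm against cytoplasm and 23, 29 and 39 in the shifts, and moved no count by over 1.5 times.

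Of the log2 fold changes of single members that were followed, 2543 kept their direction and their call, 59 became calls, 24 stopped being calls and 37 changed sign, all of these for members not called. These were the members in nucleoplasm against cytoplasm and only some members in the other comparisons. The tally therefore does not describe how single calls held in those other comparisons. Dnajc3 in mCtx had -0.02 with library totals and -0.08 to 0.18 with single libraries left out, lowest without nucleoplasm replicate 1 or cytoplasm replicate 2, and Stt3b 0.00 to 0.09, lowest without nucleoplasm replicate 1. In TPM, Erp44 in mCtx had 0.07 and Stt3a -0.43 and -0.44. In mNPC, library totals and the TPM values with either pseudocount gave -0.20, -0.06 and -0.07 for Manf, -0.09, -0.16 and -0.16 for Dad1, -0.01, -0.06 and -0.06 for Spcs2 and -0.06, -0.09 and -0.09 for Spcs3. Sec61g in mNPC ranged from -0.28 to 0.04, above 0 without nucleoplasm replicate 3. Spcs1 in mNPC had 0.12 with RLE factors and with DESeq2, 0.03 without a filter, 0.13 with the 1 CPM filter, 0.10 from only the libraries compared, and -0.08 to 0.30 with single libraries left out, at 0.03, 0.07 and 0.30 without cytoplasm replicate 3, nucleoplasm replicate 2 and nucleoplasm replicate 3. In mESC, Sec61b had 0.01 with library totals, and Sec61g had -0.01 with RLE factors and DESeq2 and 0.00 without a filter. Without mESC nucleoplasm replicate 3 or cytoplasm replicate 1, Sec61g had -0.03 and -0.13, within a range up to 0.18, and Ostc had -0.02 and -0.03, within a range up to 0.26.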
